A study of Mus musculus with 10 samples.

Results

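Transcripts of skeletal muscle were measured in 10 xenograft tumours through 34 human genes of the sarcomere, its calcium release system, muscle energy metabolism and muscle regulation. The 34 were chosen by name, with earlier results of these data known, from 33538 human genes in the table of counts. All 34 were found there. Each gene was put in 1 role here: 10 as genes of the sarcomere shared by fibre types, 2 of fast fibres and 7 of slow fibres. The rest were put as 2 embryonic or neonatal myosins, 3 of calcium handling, 8 of metabolism and 2 regulators. The tumours grew from DAOY, a human cell line established from a medulloblastoma, placed in the flank of nude mice, which lack T cells and accept human grafts. The mice were labelled female. The control group ate ordinary chow (n = 3). A second group was treated with an oil of docosahexaenoic acid (DHA oil, n = 3), and the last, labelled fish oil (n = 4), was taken to be the arm given DHA together with eicosapentaenoic acid. All 10 tumours were taken with 30 days of treatment on the label. The tumours of all groups come from 1 cell line, and the labels used here give neither the age of the mice nor which mouse each tumour came from, so a p-value here reflects only tumour-to-tumour spread, which may be technical.

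The sarcomere is the contractile unit of striated muscle. Thick filaments of myosin pull on thin filaments of actin, tropomyosin and troponin, titin and nebulin act as rulers, and the Z-disc proteins anchor neighbouring units. Fast and slow fibres use different myosins, troponins and myosin-binding proteins, embryonic myosins precede the adult ones in development and regeneration, and calcium released through the ryanodine receptor starts each contraction. Medulloblastoma is a tumour of the cerebellum, and most of these genes are known as products of muscle rather than of neural cells.

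Levels are given as CPM, a gene's reads scaled to a common library total. They are compared between libraries and not between genes, since transcript lengths were not used. Totals ranged from 6187116 to 10035702 reads, so 1 read was worth 0.0978 to 0.160 CPM, and 3 reads, the upper limit that a count of 0 allows, were worth 0.293 to 0.480 CPM (counting error only). Of the 34 genes, 27 passed the filter on low counts and were tested. The genes were chosen with earlier results of these data known, and a gene could pass through the group in which it was high. Counts over the 27, set beside shares of all genes, are therefore descriptions and not tests. The other 7 (MYOT, MYOZ1, MYBPC2, TNNC1, MYL2, CKMT2 and COX6A2) are given as reads. A lower level in bulk tissue cannot tell fewer cells of a type from less RNA per cell.

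**Figure D1:**
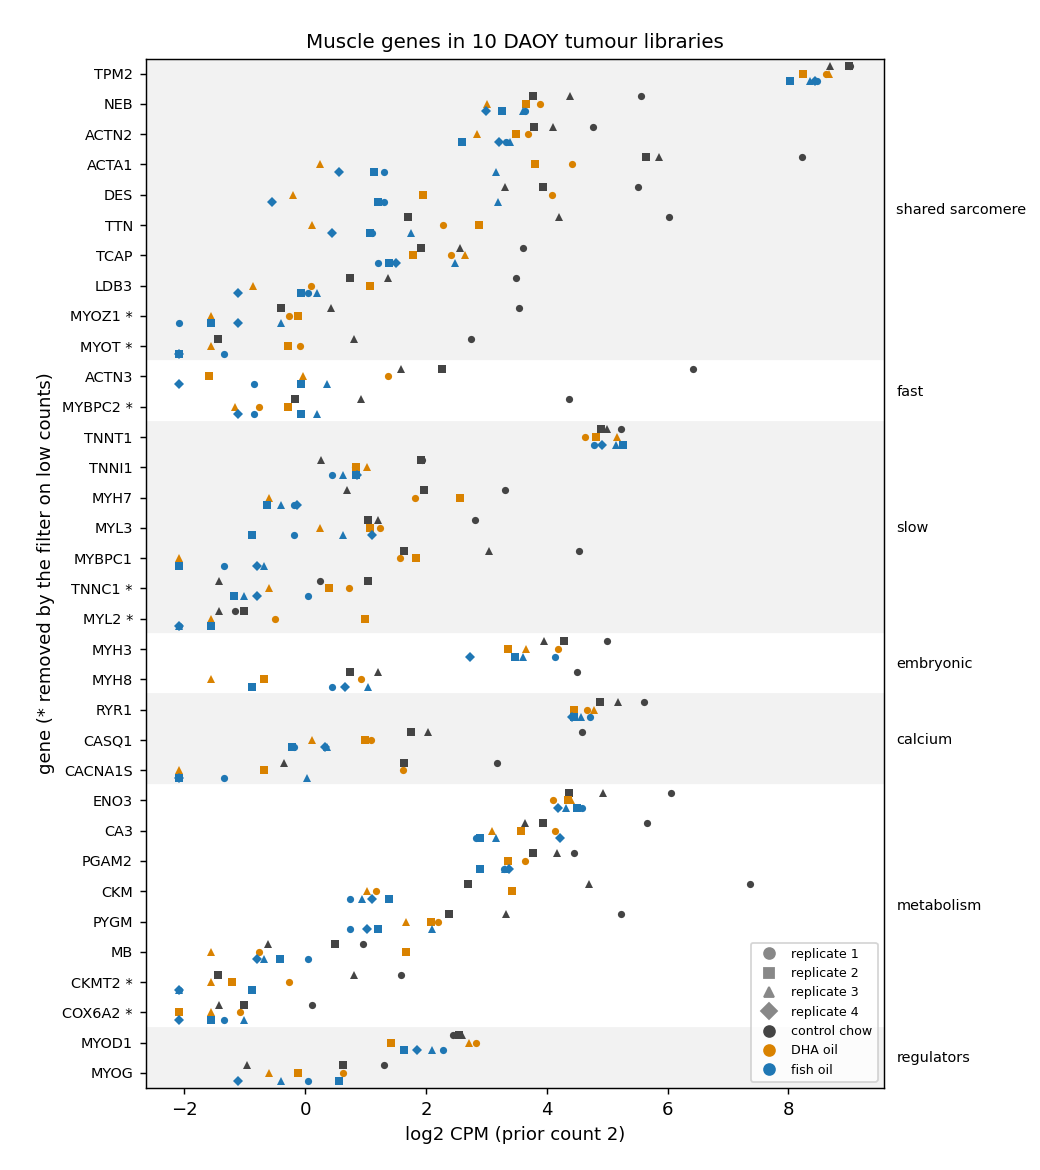
Level of each of the 34 genes (rows, grouped by role) in each library, as log2 CPM with a prior count of 2. Colour is diet and marker shape is replicate number, and an asterisk marks the 7 genes removed by the filter. Control replicate 1 is the rightmost point of 29 of the 34 genes.

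The muscle genes were on the whole at higher levels in control tumours than in tumours treated with the oils. Taking both oils together against control, 6 genes were lower: ACTA1, the actin of skeletal thin filaments; ACTN3, the Z-disc actinin of fast fibres; MYBPC1, the slow myosin-binding protein C; CASQ1, which stores calcium in the sarcoplasmic reticulum; CKM, the muscle creatine kinase; and PYGM, the muscle glycogen phosphorylase. None of the 27 was higher. Calls rest on an adjusted p under 0.05 (edgeR quasi-likelihood, adjusted by Benjamini-Hochberg over all 16013 genes tested). Of all those genes 21, or 0.131%, were called lower and 0% higher. The log2 fold change was below 0 for 27 of the 27, against 49.6% of all genes, with a median of -1.32 (range -5.40 to -0.09) against 0.00 for all genes. Before adjustment, 23 of the 27 were lower at p under 0.05 and 0 higher, against 1.64% and 0.98% of all genes. The count of 6 was 23 of 34 with no filter on low counts (0.292% of all genes called), 9 of 27 in DESeq2 (0.169%) and 0 in limma-voom (0.00624%), where 20 were lower at an unadjusted p under 0.05, against 2.79% of all genes. The median was -1.91 with the strict filter (mean CPM of 1).

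The size of these differences came largely with 1 library. Control replicate 1 held the highest level of 24 of the 27 tested genes, where 6.88% of all tested genes had their highest level in that library. Its level was at least 2 times the mean of the other controls for 19 of the 27 (70.4%), against 1.9% of all genes. Without it, 0 of the 27 genes were called (edgeR, 0.0185% of all genes called). The median log2 fold change was then -0.70, the value was below 0 for 26 of the 27 tested in that fit, and 13 were lower at p under 0.05 before adjustment, against 1.53% of all genes. The set of 27 differs by 1 gene, since TNNC1 passed the filter in that fit and MB did not. The fits without other single libraries tested 26 to 31 of the 34 genes, since the filter then passed other members. Without control replicate 2, 16 of 30 were called (0.214% of all genes) and the median was -1.92. Of the 16, 13 were among the 27 and the rest were CKMT2, MYBPC2 and MYOT. The other counts were 0 (fish oil replicate 2 left out, 0.0252% of all genes called), 1 (DHA oil replicate 2, 0.037%, or fish oil replicate 4, 0.0315%), 2 (DHA oil replicate 3, 0.0493%, or fish oil replicate 1, 0.0751%), 5 (DHA oil replicate 1, 0.134%) and 6 (control replicate 3, 0.128%, or fish oil replicate 3, 0.144%), all of them among the 27.

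The 4 genes listed as markers of the skeletal muscle fibre, all of them members (ACTA1, CKM, TTN and NEB), summed to 577 CPM in control replicate 1, 72.3 CPM in control replicate 2 and 123 CPM in control replicate 3. The DHA oil tumours held 42.3, 43.7 and 11.4 CPM in replicates 1 to 3, and the fish oil tumours 17.8, 15.5, 25.5 and 12.0 CPM in replicates 1 to 4. All 4 markers were detected in every library, so none of the tumours was free of them. The lowest control lay above the highest oil-treated tumour for this sum, and DHA oil replicate 3 lay with the fish oil tumours rather than with the other DHA oil tumours. Only ACTA1 separated so by itself, and it made up 49.5 of the 72.3 CPM in control replicate 2. That control lay below DHA oil replicate 2 for CKM (6.27 against 10.5 CPM) and TTN (3.01 against 7.14 CPM). For NEB it lay below DHA oil replicate 1 (13.5 against 14.5 CPM). The marker sum was thus lower in every oil-treated tumour than in every control, which did not hold for CKM, TTN or NEB. It was highest in control replicate 1. Whether these reads came from DAOY cells or from tissue of the host was not tested.

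Among the filament and Z-disc genes grouped as shared by all fibres, ACTA1 (ENSG00000143632) had the widest span. It stood at 299 CPM in control replicate 1 and at 49.5 and 57.9 CPM in control replicates 2 and 3. In DHA oil replicates 1 to 3 it stood at 21.2, 13.7 and 0.948 CPM, and in fish oil replicates 1 to 4 at 2.24, 1.96, 8.73 and 1.24 CPM. All 7 oil-treated tumours lay below all 3 controls, with control replicate 1 at 5.17 times the next library and DHA oil replicate 3 at the lowest level of all. ACTA1 was 21.2-fold lower with both oils, a log2 fold change of -4.41 ± 0.63 (SE; edgeR adjusted p = 0.0144). That value was -3.07 without control replicate 1 (adjusted p = 0.296), and the call was also lost without DHA oil replicate 2 or fish oil replicate 2, with values of -4.46 and -4.29.

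The other shared sarcomere genes that were tested were not called in the edgeR fit of all 10 libraries after the filter. DESeq2 called ACTN2, LDB3 and NEB of them. TTN (ENSG00000155657), the titin spring that spans from Z-disc to midline, stood at 64.9, 3.01 and 18.1 CPM in control, at 4.61, 7.14 and 0.843 CPM in DHA oil, and at 1.92, 1.86, 3.13 and 1.13 CPM in fish oil. Its groups overlapped, because control replicate 2 lay below DHA oil replicates 1 and 2 and fish oil replicate 3. Its log2 fold change with both oils was -3.32 ± 0.61 (SE) and missed the threshold (edgeR adjusted p = 0.0562), and it was -1.86 without control replicate 1. NEB (ENSG00000183091), the nebulin ruler of the thin filament, stood at 47.1, 13.5 and 20.6 CPM in control, at 14.5, 12.4 and 7.79 CPM in DHA oil, and at 12.2, 9.29, 12.0 and 7.77 CPM in fish oil, so that only DHA oil replicate 1 lay above the lowest control. Its value was -1.32 (edgeR adjusted p = 0.220).

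DES (ENSG00000175084), the desmin filament that links myofibrils, stood at 45.3, 15.2 and 9.68 CPM in control, at 16.8, 3.62 and 0.632 CPM in DHA oil, and at 2.24, 2.06, 8.86 and 0.450 CPM in fish oil. The fish oil tumours lay below all controls and DHA oil replicate 1 lay above control replicates 2 and 3. Its value was -2.30, with no call (edgeR adjusted p = 0.973). LDB3 (ENSG00000122367) and TCAP (ENSG00000173991), which organise the Z-disc and its link to titin, had values of -2.62 and -0.89 and were not called either (edgeR adjusted p = 0.179 and 1.00). MYOT (ENSG00000120729), or myotilin, which crosslinks actin at the Z-disc, had 61, 1 and 11 reads in control, 1 to 6 in DHA oil and 0 to 1 in fish oil. MYOZ1 (ENSG00000177791), a Z-disc protein that binds calcineurin, had 108, 4 and 8 reads in control, 1 to 7 in DHA oil and 0 to 4 in fish oil, and neither of these last genes was tested.

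ACTN2 and TPM2 showed a smaller but more even difference. ACTN2 (ENSG00000077522), the Z-disc actinin of all striated fibres, stood at 26.9, 13.6 and 16.9 CPM in control, at 12.7, 11.0 and 6.95 CPM in DHA oil, and at 9.77, 5.78, 10.3 and 9.01 CPM in fish oil. TPM2 (ENSG00000198467), the beta chain of tropomyosin, which is also made outside striated muscle, stood at 522, 513 and 412 CPM in control, at 396, 301 and 407 CPM in DHA oil, and at 354, 261, 328 and 349 CPM in fish oil. For both genes every oil-treated tumour lay below every control, although the lowest TPM2 control and the highest oil-treated tumour were close. The level in control replicate 1 was 1.77 times the mean of the other controls for ACTN2 and 1.13 times for TPM2. Their log2 fold changes were -1.03 ± 0.23 and -0.48 ± 0.13 (SE) with all libraries, and -0.70 and -0.43 without control replicate 1, and neither was called in edgeR (adjusted p = 0.244 and 0.724).

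In all, 8 of the 27 tested genes had every oil-treated tumour below every control: ACTA1, ACTN2, ACTN3, CASQ1, PGAM2, PYGM, RYR1 and TPM2. Of all 16013 genes, 0.662% did so. None of the 27 had every oil-treated tumour above every control, against 0.462% of all genes.

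**Figure D2:**
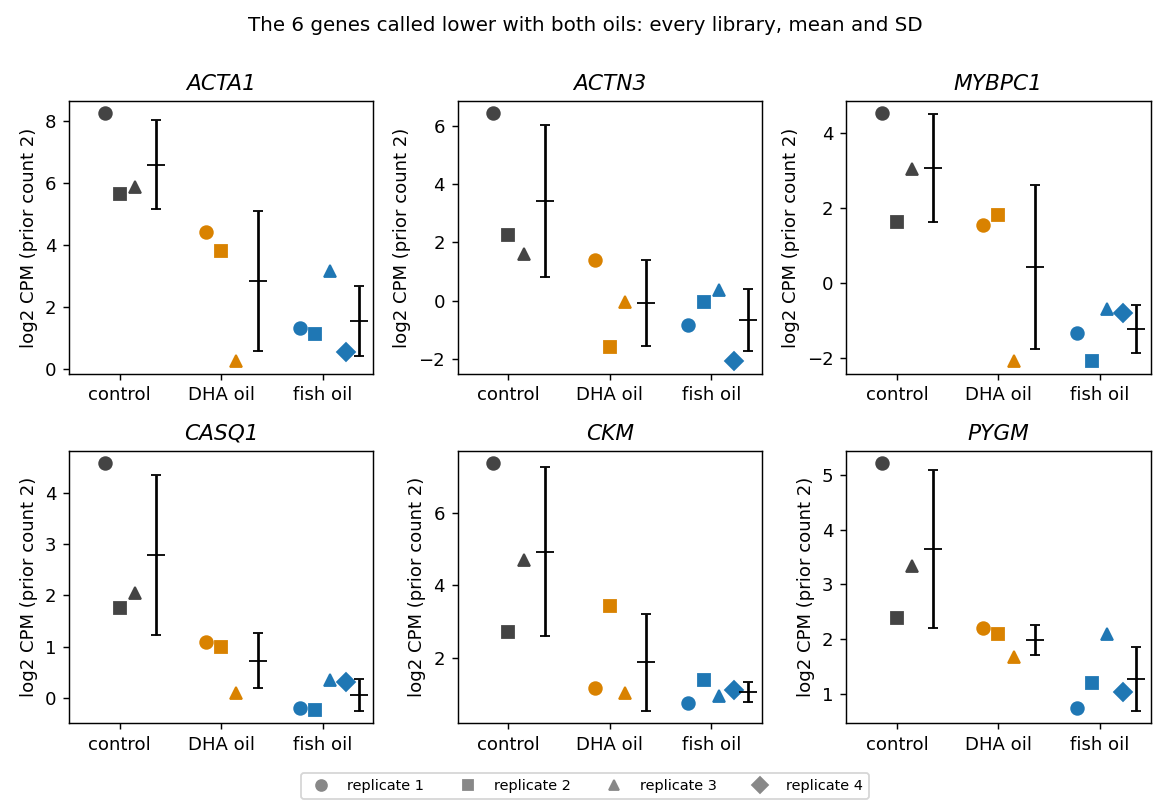
The 6 genes called lower with both oils, as log2 CPM (prior count 2, y axis) in each library by diet (x axis), with marker shape for replicate number and a bar for mean and SD of the group. Control replicate 1 is the highest point in each panel, and for CKM and MYBPC1 control replicate 2 lies below DHA oil replicate 2.

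Both genes grouped as fast-fibre stood out through control replicate 1. ACTN3 (ENSG00000248746) was at 85.5 CPM there (806 reads), at 4.57 and 2.77 CPM in the other controls, at 2.36, 0.0978 and 0.737 CPM in DHA oil, and at 0.320, 0.722, 1.04 and 0 CPM in fish oil. No oil-treated tumour reached the controls, but DHA oil replicate 1 was close to control replicate 3, and the 0 reads in fish oil replicate 4 allow up to 0.338 CPM. ACTN3 had the lowest log2 fold change of the 27 tested genes, -5.40 ± 0.88 (SE; edgeR adjusted p = 0.0247), which is 42.2-fold lower with the oils. It was -2.31 without control replicate 1 (adjusted p = 1.00). The call was also lost without DHA oil replicate 2 (-5.11), DHA oil replicate 3 (-5.30) and fish oil replicates 1 (-5.34), 2 (-5.52) and 4 (-5.18), while the value was -6.04 without DHA oil replicate 1. MYBPC2 (ENSG00000086967), the fast myosin-binding protein C, had 193 reads in control replicate 1, 5 and 12 in the other controls, and 2 to 7 in the 7 oil-treated tumours. The filter, which asks for enough reads in at least 3 libraries, removed it.

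The slow-fibre genes fell into unlike patterns. MYBPC1 (ENSG00000196091) stood at 22.9, 2.87 and 8.02 CPM in control and at 2.72, 3.32 and 0 CPM in DHA oil. In fish oil it stood at 0.160, 0, 0.391 and 0.338 CPM, and the counts of 0 allow up to 0.316 CPM in DHA oil replicate 3 and 0.310 CPM in fish oil replicate 2. The fish oil tumours all lay under every control, whereas DHA oil replicates 1 and 2 lay on either side of control replicate 2. With both oils the log2 fold change was -4.06 ± 0.69 (SE; edgeR adjusted p = 0.0265), or 16.7-fold lower. Without control replicate 1 it was -2.99 (adjusted p = 0.891). The call was lost as well without DHA oil replicate 2 (-4.36) or fish oil replicate 1 (-4.02), 2 (-3.82) or 4 (-4.22).

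TNNT1 (ENSG00000105048), the troponin T of slow fibres, did not follow the rest. It stood at 37.3, 29.7 and 31.8 CPM in control, at 24.5, 28.0 and 35.6 CPM in DHA oil, and at 27.4, 38.0, 35.3 and 30.1 CPM in fish oil. The 3 diets overlapped throughout, the highest tumour was a fish oil one, and control replicate 1 was at 1.22 times the mean of the other controls. With both oils the difference was -0.09 on the log2 scale, with a 95% interval of -0.40 to 0.22, and its sign changed (0.0092) without control replicate 1. TNNI1 (ENSG00000159173), the slow troponin I, had 7 to 34 reads per library and a value of -0.85, not called (edgeR adjusted p = 1.00). TNNC1 (ENSG00000114854), the troponin C of slow and cardiac muscle, had 1 to 14 reads in control, 4 to 12 in DHA oil and 2 to 5 in fish oil.

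A pair of slow-fibre myosin chains peaked in different libraries. MYH7 (ENSG00000092054), the slow and cardiac heavy chain, stood at 9.65, 3.66 and 1.38 CPM in control and at 3.31, 5.67 and 0.421 CPM in DHA oil, but at 0.640, 0.413, 0.521 and 0.676 CPM in fish oil. The 4 fish oil tumours lay below all controls, and DHA oil replicate 2 lay above control replicates 2 and 3. With both oils MYH7 differed by -1.90 on the log2 scale, or by -0.93 without control replicate 1 (edgeR adjusted p = 1.00 in both fits). MYL2 (ENSG00000111245), the regulatory light chain of slow and cardiac muscle, had 18 reads in DHA oil replicate 2 and at most 4 in any other library, with 0 in fish oil replicates 1, 3 and 4. MYL3 (ENSG00000160808), the essential light chain of the same fibres, was highest in control replicate 1 (6.79 CPM) and had a log2 fold change of -1.47 (edgeR adjusted p = 1.00). MYH7 and MYL2 were chosen for description after their values were seen.

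Both developmental myosins were highest in control replicate 1. MYH8 (ENSG00000133020), the neonatal heavy chain, was at 22.4 CPM there, against 1.44 and 2.07 CPM in the other controls, 1.66, 0.391 and 0.105 CPM in DHA oil and 1.12, 0.310, 1.82 and 1.35 CPM in fish oil. Apart from that library its levels in control and oil-treated tumours overlapped. MYH3 (ENSG00000109063), the embryonic heavy chain, was more even, at 31.6, 19.3 and 15.2 CPM in control, 18.0, 9.97 and 12.3 CPM in DHA oil and 17.5, 10.9, 12.0 and 6.42 CPM in fish oil. Log2 fold changes with both oils were -3.31 ± 0.72 for MYH8 and -0.83 ± 0.27 for MYH3 (SE), and -0.98 and -0.48 without control replicate 1. Neither was called in edgeR (adjusted p = 0.187 and 1.00). The heavy chain genes resemble one another in sequence, and how reads shared between genes were counted is not given in the sources used here, so their separate levels are uncertain, as is that of ACTA1 against other actins.

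**Figure D3:**
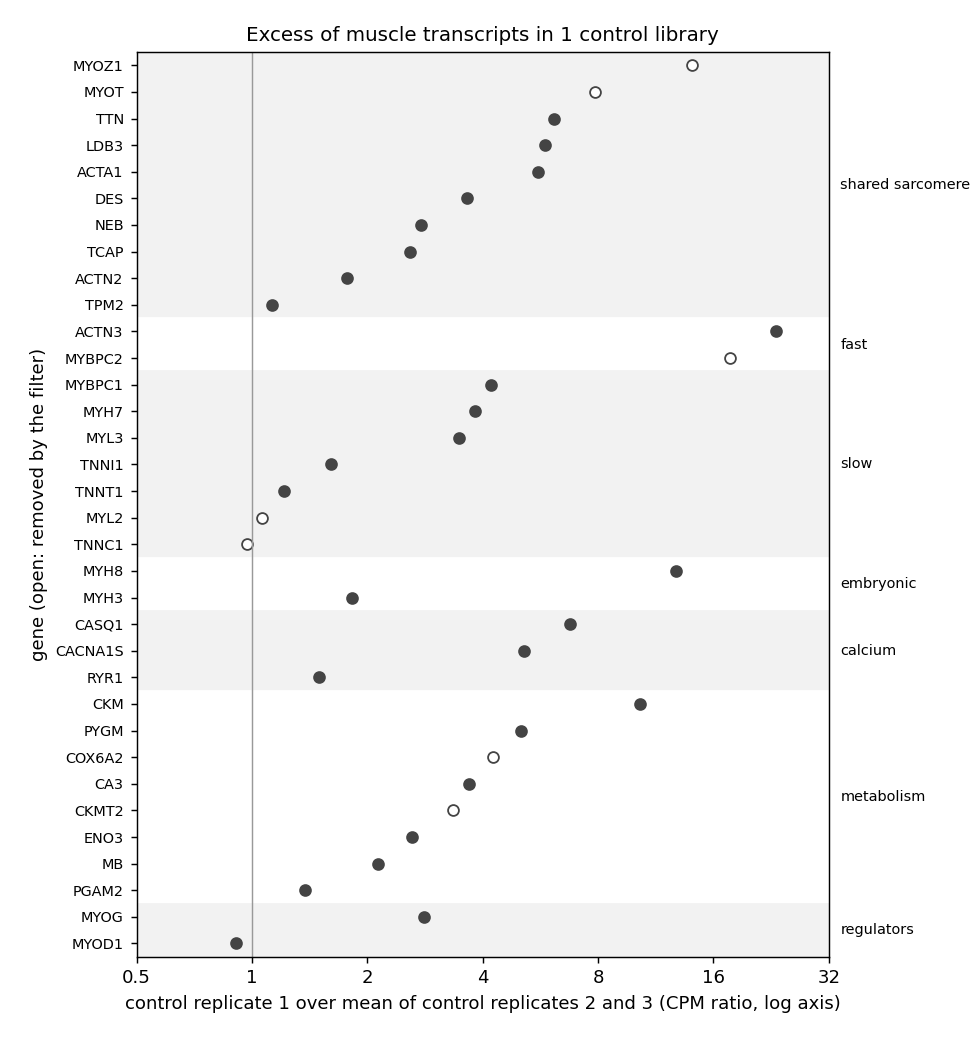
Ratio of the level in control replicate 1 to the mean of control replicates 2 and 3 for each of the 34 genes (log axis, grouped by role, open circles for the 7 genes removed by the filter). The genes grouped as fast-fibre reach 17.7 and 23.3, and MYOZ1, grouped as shared, reaches 14.1. Of the 7 slow-fibre genes, 4 lie below 2: TNNI1 (1.60), TNNT1 (1.22), MYL2 (1.06) and TNNC1 (0.970). The ratios of MYL2 (1 to 2 reads in the controls) and TNNC1 (1 to 14 reads) are uncertain.

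The excess in control replicate 1 was thus not even over the genes. Its ratio to the mean of the other controls was 23.3 for ACTN3 and 17.7 for MYBPC2. The median was 4.61 over the 10 genes grouped as shared sarcomere and 1.60 over the 7 slow-fibre genes (range 0.970 to 4.21). Both medians include genes removed by the filter. Of these, MYL2 had 2, 2 and 1 reads in the controls and TNNC1 9, 14 and 1, so their ratios are uncertain. The 5 tested slow-fibre genes had ratios of 1.22 (TNNT1), 1.60 (TNNI1), 3.48 (MYL3), 3.83 (MYH7) and 4.21 (MYBPC1). The 8 tested shared genes ran from 1.13 (TPM2) to 6.15 (TTN), so these roles overlapped. Of the 10 shared genes, MYOZ1 had the highest ratio, 14.1. A contrast between roles thus depends on the grouping and on genes with few reads. The medians were 5.14 over the 3 genes of calcium handling and 3.51 over the 8 of metabolism. MYH8 stood at 12.7 times the other controls and MYH3 at 1.83 times, MYOG at 2.81 times and MYOD1 at 0.910 times. No test was made between roles.

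For calcium handling, CASQ1 (ENSG00000143318) gave the clearest separation. It stood at 23.7, 3.14 and 3.87 CPM in control, at 1.89, 1.76 and 0.843 CPM in DHA oil, and at 0.640, 0.619, 1.04 and 1.01 CPM in fish oil. Every oil-treated tumour lay below every control. Its log2 fold change was -3.21 ± 0.52 (SE; edgeR adjusted p = 0.0239), or 9.22-fold lower, and -1.64 without control replicate 1 (adjusted p = 0.483). The call was lost also without DHA oil replicate 2 (-3.28), DHA oil replicate 3 (-3.06) and fish oil replicates 1 (-3.17), 2 (-3.14) and 4 (-3.27).

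RYR1 (ENSG00000196218), the ryanodine receptor that releases the stored calcium, differed little but evenly, at 48.6, 29.1 and 35.8 CPM in control, 25.2, 21.6 and 27.3 CPM in DHA oil and 25.9, 21.6, 23.5 and 21.2 CPM in fish oil. Here too no oil-treated tumour reached a control. RYR1 differed by -0.67 ± 0.15 (SE) on the log2 scale, or by -0.45 without control replicate 1, and was not called (edgeR adjusted p = 0.220). CACNA1S (ENSG00000081248), the voltage sensor that couples the membrane to RYR1, had 83, 22 and 4 reads in control, 24, 4 and 0 in DHA oil, and 1, 0, 6 and 0 in fish oil, and was not called (log2 fold change -3.10, edgeR adjusted p = 0.724).

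Among the metabolic genes, CKM and PYGM were called. CKM (ENSG00000104879), which buffers ATP through phosphocreatine, stood at 165, 6.27 and 25.9 CPM in control, at 2.01, 10.5 and 1.79 CPM in DHA oil, and at 1.44, 2.37, 1.69 and 1.91 CPM in fish oil. DHA oil replicate 2 lay above control replicate 2, so the oils together overlapped control, while fish oil alone did not. CKM had a log2 fold change of -4.44 ± 0.69 (SE; edgeR adjusted p = 0.0196), or 21.7-fold lower, and -2.41 without control replicate 1 (adjusted p = 0.504). The call was lost too without DHA oil replicate 3 (-4.24), fish oil replicate 2 (-4.52) or fish oil replicate 4 (-4.44), and the value was -5.12 without DHA oil replicate 2.

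PYGM (ENSG00000068976), which releases glucose units from muscle glycogen, stood at 37.1, 4.97 and 9.82 CPM in control, at 4.37, 4.01 and 2.95 CPM in DHA oil, and at 1.44, 2.06, 4.04 and 1.80 CPM in fish oil. All oil-treated tumours lay below all controls, control replicate 2 by a small margin. For PYGM the log2 fold change was -2.55 ± 0.44 (SE; edgeR adjusted p = 0.0339), or 5.87-fold lower, and -1.31 without control replicate 1 (adjusted p = 1.00). It was called in 3 of the 10 fits that left out 1 library, those without control replicate 2, control replicate 3 or fish oil replicate 3, and in the others the value lay between -2.61 and -1.31.

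PGAM2 (ENSG00000164708), the muscle phosphoglycerate mutase of glycolysis, stood at 21.5, 13.5 and 17.8 CPM in control, 12.3, 9.97 and 10.01 CPM in DHA oil and 9.61, 7.22, 9.64 and 10.1 CPM in fish oil. Its groups did not overlap, and its log2 fold change of -0.83 ± 0.17 (SE) changed little, to -0.66, without control replicate 1. The test did not call it (edgeR adjusted p = 0.137). ENO3 (ENSG00000108515), the muscle enolase of the same pathway, stood at 66.3, 20.5 and 30.1 CPM in control, 17.0, 20.2 and 21.0 CPM in DHA oil and 23.9, 22.4, 19.8 and 17.9 CPM in fish oil, so control replicate 2 lay among the oil-treated tumours. It had a log2 fold change of -0.96 ± 0.25 (SE), or -0.33 without control replicate 1, and was not called (edgeR adjusted p = 0.547).

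CA3 (ENSG00000164879), the carbonic anhydrase abundant in slow fibres, was at 50.4 CPM in control replicate 1, and at 6.88 to 18.4 CPM in the other 9 tumours. Its log2 fold change with both oils was -1.21, or -0.28 without control replicate 1 (edgeR adjusted p = 1.00 in both fits). MB (ENSG00000198125), the oxygen store myoglobin, had its most reads in DHA oil replicate 2 (30 reads), against 16 in control replicate 1 and at most 9 elsewhere. Among the 7 oil-treated tumours that one held the highest level of 6 of the 27 tested genes (CKM, LDB3, MB, MYBPC1, MYH7 and TTN) and, among those not tested, of MYL2 and MYOZ1. The share over all genes was not counted. CKMT2 (ENSG00000131730), the mitochondrial creatine kinase of striated muscle, had 26, 1 and 11 reads in control, 1 to 5 in DHA oil and 0 to 3 in fish oil, and COX6A2 (ENSG00000156885), the muscle subunit of cytochrome oxidase, had 18 reads over all 10 libraries.

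Neither regulator of muscle identity was called. MYOD1 (ENSG00000129152), the factor that commits cells to the muscle lineage, stood at 5.20, 5.62 and 5.81 CPM in control, at 6.86, 2.44 and 6.32 CPM in DHA oil, and at 4.64, 2.89, 4.04 and 3.38 CPM in fish oil. Its level in control replicate 1 was below those of the other controls, DHA oil lay on both sides of control, and all 4 fish oil tumours lay below all controls. The log2 fold change with both oils was -0.34, with a 95% interval of -0.94 to 0.26. MYOG (ENSG00000122180), the factor that drives differentiation, had 2 to 21 reads per library and a value of -0.81 (interval -1.97 to 0.34). In edgeR the adjusted p was 1.00 for each.

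**Figure D4:**
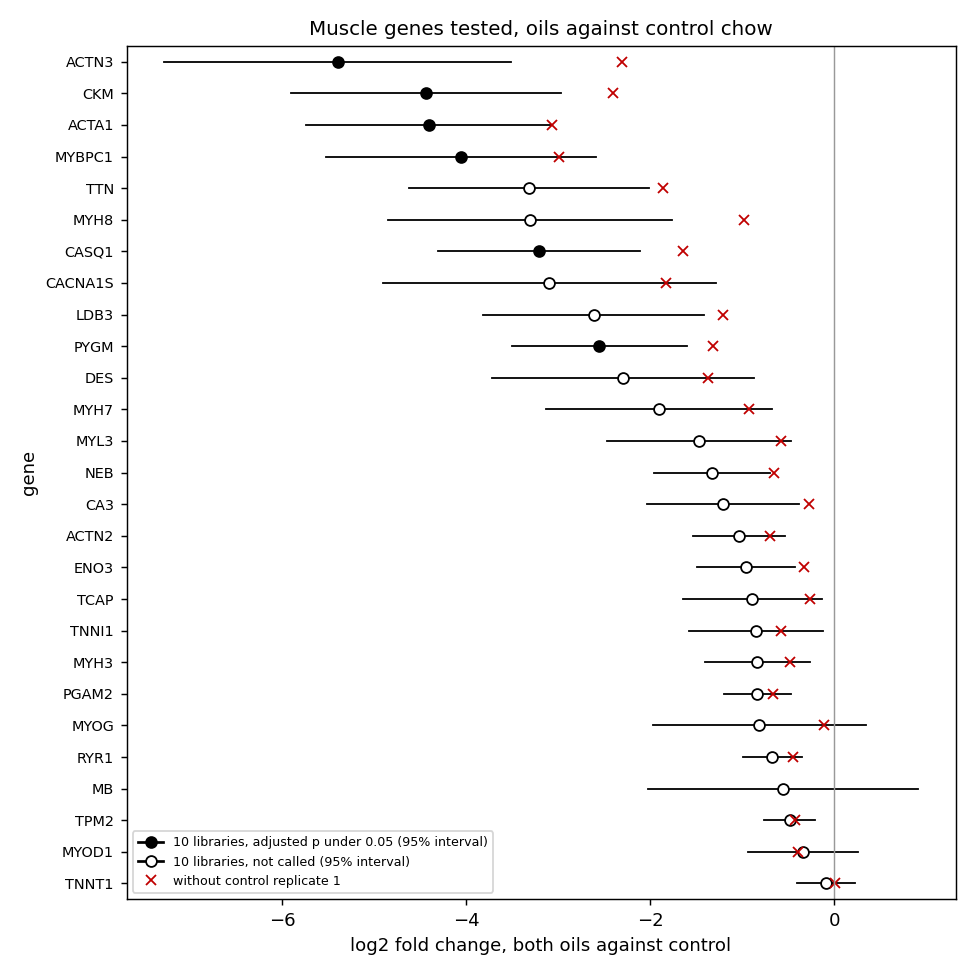
Log2 fold change of both oils against control (x axis) for the 27 genes tested (rows), with 95% intervals from all 10 libraries, filled where called, and crosses for the value without control replicate 1 (MB, removed by the filter in that fit, has none). Values run from -5.40 for ACTN3 to -0.09 for TNNT1, and the crosses of the 6 called genes lie nearer to 0, at -3.07 to -1.31.

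Neither oil on its own gave a call among the 27 genes in the edgeR fit of all 10 libraries after the filter. For DHA oil against control 0 of the 27 were called lower or higher, as were 0% of all genes. Before adjustment 18 were lower at p under 0.05 and 0 higher, against 1.72% and 1.02% of all genes. The log2 fold change was below 0 for 26 of the 27 (49.2% of all genes), with a median of -1.08 (all genes 0.00). The exception was MB, at 0.054. The smallest adjusted p was 0.476, shared by ACTA1 (-3.52), CASQ1 (-2.79), ACTN3 (-4.93) and CKM (-3.76). DESeq2 called 1 of the 27, CASQ1 (0.0687% of all genes), and the edgeR fit with no filter called 13 of 34 (0.219%). Without control replicate 1 the median was -0.55, with 0 called (0%) and 7 lower before adjustment, against 1.86% of all genes.

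For fish oil against control 0 of the 27 were called lower or higher, against 0.00624% and 0% of all genes. Before adjustment 23 were lower and 0 higher, against 1.84% and 1.64%. All 27 values were below 0 (48.5% of all genes), with a median of -1.41 (all genes 0.01). ACTA1 came nearest to a call (log2 fold change -5.29, edgeR adjusted p = 0.0566), followed by MYBPC1 (-5.63, 0.0571), CKM (-5.12, 0.0625) and CASQ1 (-3.62, 0.0631). DESeq2 called 9 of the 27 (0.125% of all genes), and edgeR with no filter 22 of 34 (0.215%). With control replicate 2 left out edgeR called 10 of 30 tested (0.134% of all genes), 8 of them among the 27 and the others MYBPC2 and MYOT. It called 6 of 28 without control replicate 3 (0.116%), 2 of 31 without DHA oil replicate 3 (0.0246%), 1 of 30 without DHA oil replicate 1 (0.0366%) and 0 with any other library left out. The median was -2.57 without control replicate 2 and, over the different set of 27 genes that passed the strict filter, -2.82. Without control replicate 1 it was -0.82, with 15 lower before adjustment, against 1.59% of all genes.

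Every fish oil tumour lay below every control for 15 of the 27 genes, against 2% of all genes, and none lay wholly above, against 1.74%. The 15 were ACTA1, ACTN2, ACTN3, CASQ1, CKM, DES, LDB3, MYBPC1, MYH7, MYOD1, NEB, PGAM2, PYGM, RYR1 and TPM2. Every DHA oil tumour lay below every control for 8, against 5.93% of all genes, and none wholly above, against 4.66%. These 8 were the genes named above for both oils together. The single-oil comparisons share their 3 controls.

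Among the oil-treated tumours the highest level lay in DHA oil replicate 1 for 13 of the 27 genes, in replicate 2 for 6 and in replicate 3 for 4, and in each fish oil tumour for 1. DHA oil replicate 3 was the lowest of its group for 17 of the 27. Shares over all genes were not counted for these patterns, so whether they are particular to muscle genes is not known. The DHA oil mean was above the fish oil mean for 24 of the 27.

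Set directly against each other, the oils gave 0 calls among the 27, and 0% of all genes were called in edgeR. The log2 fold change of fish oil over DHA oil was below 0 for 24 of the 27 (47.9% of all genes), with a median of -0.62 against 0.01 for all genes. Without DHA oil replicate 1 the median was -0.18, with 19 of 30 tested below 0. It was -0.41 without DHA oil replicate 2, -0.24 in limma-voom and -0.24 over the 19 genes tested in a fit of these 2 groups alone. None of the 27 had separate groups, lower or higher, against 2.08% and 2.87% of all genes. Before adjustment 2 of the 27, MYH7 and MYBPC1, were lower in fish oil at p under 0.05, with 0 higher, against 2.14% and 2.7% of all genes.

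MYH7 differed by -2.47 on the log2 scale (95% interval -4.12 to -0.83) and MYBPC1 by -3.14 (-5.58 to -0.69), both at an adjusted p of 0.875 in edgeR. For both genes DHA oil replicates 1 and 2 were high and DHA oil replicate 3 was at the fish oil level. Without DHA oil replicate 2, which held the highest MYH7 level of the oil-treated tumours, the MYH7 value was -1.69. The intervals of the other genes called with both oils were wide, at -3.62 to 0.09 for ACTA1, -3.54 to 0.83 for CKM, -4.47 to 2.60 for ACTN3, -2.49 to 0.82 for CASQ1 and -1.96 to 0.59 for PYGM. A difference between the oils was not detectable for these 5 genes with 3 and 4 tumours, and equal levels were not shown.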

How the data were processed

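Stranded poly(A) RNA libraries of 10 tumours were read as single 75 bp reads, per the labels' protocols. The authors deposited raw counts of reads per human Ensembl gene. STAR, HTSeq 0.9.0 and the GRCh38 build are named in the submitters' processing notes. Whether reads of the mouse host were removed first, how strand was set and how shared reads were treated is not given in the sources used here, and the labels give mouse as the organism. The reference tables matched 0 of the human identifiers, so only the 34 genes, whose symbols came with their list, are named. The other lists drawn up (fast-twitch and further muscle genes, and markers of satellite cells, heart, smooth muscle, fat, skin, endothelium, leukocytes and nerve) were not measured beyond those 34, and no position or sequence is printed.

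Counts were filtered with filterByExpr (minimum count 10, leaving 16013 of 33538 genes), scaled by TMM and tested in edgeR 4.0.16 (R 4.3.3) with quasi-likelihood F tests, all 10 libraries in 1 fit with diet as the factor. P-values were adjusted over all genes tested by Benjamini-Hochberg, with a threshold of 0.05. The SE is the log2 fold change over the square root of F, and intervals are 95%. Scripts were tested on simulated data. No pair of replicates came within sampling noise of each other (lowest chi-square per degree of freedom 6.61). The genes, roles and lists were chosen with earlier results of these data known. Values in every library are given for genes called, the 2 of each role with the highest mean CPM and genes whose oil and control tumours did not overlap. Exceptions are MYOG and MYBPC2, given wholly or partly as ranges of reads. The others described were chosen after their values were seen. Alternatives were RLE scaling, no scaling factors, no filter, a strict filter (mean CPM of 1), DESeq2 1.42.0, limma-voom with quality weights (limma 3.58.1), a fit of the compared groups alone, a block for replicate number, and each library left out in turn. The labels name no batch.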

Additional observations from a re-analysis of the deposited data

Results flagged for a closer look

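In the group of 4 fish oil tumours, 27 tested genes were examined for a tumour far from the rest, and 3 genes had one. Chance gives about 1 in 20 for normally spread values. The rule was applied to CPM and not to log2 CPM, so that rate may not hold here. ACTA1 in fish oil replicate 3 was at 8.73 CPM, against 1.24 to 2.24 CPM in the others (gap 0.866 of the range). TCAP in the same tumour was at 5.34 CPM, against 2.08 to 2.59 CPM (0.844). CA3 in fish oil replicate 4 was at 18.4 CPM, against 6.88 to 8.73 CPM (0.839). Over all 10 libraries, that tumour held the highest level of 24.6% of all tested genes and of 0 of the 27. Fish oil replicate 3 held the highest fish oil level of 12 of the 27 genes, and the share over all genes was not counted.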

How the results depend on the processing

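For both oils against control, the number of the 34 genes called (6) was 6 with RLE scaling, with no scaling factors and with the strict filter, 23 with no filter on low counts, 9 in DESeq2 and 0 in limma-voom, and 0 to 16 with 1 library left out. Over all genes the count (21) was 76 with no filter and 1 in limma-voom, and 3 to 35 with 1 library left out. The lowest value in each range was without control replicate 1, which gave 0 of the 34, as did the fit without fish oil replicate 2, and the highest was without control replicate 2. Of the 6 called genes, ACTA1 kept its call in 7 of the 10 fits that left out a library, CKM in 6, MYBPC1 in 5, ACTN3 and CASQ1 in 4 each and PYGM in 3. DESeq2 did not call MYBPC1 and gave no adjusted p for ACTN3, and it called ACTN2, LDB3, NEB, PGAM2 and RYR1 besides the rest. For DHA oil against control (0 of the 34 and 0 of all genes), no filter gave 13 and 57, DESeq2 1 and 11, and limma-voom 0 and 3, and leaving out 1 library gave 0 to 5 of all genes. For fish oil against control (0 of the 34 and 1 of all genes), no filter gave 22 and 56, DESeq2 9 and 20, the compared groups alone 2 and 7, and leaving out 1 library 0 to 10 and 0 to 22, while no scaling factors, the strict filter and limma-voom gave 0 of all genes. The median of the tested genes (-1.41) was -2.82 with the strict filter and -2.57 to -0.82 with 1 library left out. The genes tested were not the same in all of these fits. For fish oil against DHA oil (0 and 0), no filter gave 1, MYH7 (adjusted p = 0.0404 in edgeR), and 14, DESeq2 gave 1 of all genes, and leaving out 1 library 0 to 1. The cause was not tested.

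Replicate numbers do not pair the tumours: deviations of same-numbered tumours correlated at -0.17 to 0.18 over 9 pairs of libraries. With the replicate number as a block, 2 of the 34 genes (ACTA1 and ACTN3) and 12 of all genes were called for both oils, 1 of all genes for DHA oil, and 0 of all genes for fish oil, against control. In the block fit the median of fish oil against DHA oil (-0.62) was -0.30.

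Direction turned in genes with no call. MYH7 in DHA oil ran from -1.44 to 0.31 and MYOD1 from -0.34 to 0.25 with 1 library left out. TNNT1 in fish oil was 0.012 with no scaling factors, 0.033 in limma-voom and 0.016 with the replicate block, and ran from -0.092 to 0.087 with 1 library left out. ACTN3 in fish oil against DHA oil was 0.060 in limma-voom and ran from -1.51 to 0.35. TNNT1 with both oils ran from -0.17 to 0.0092. Low counts limit the precision of the 7 genes that were not tested and of fold changes against tumours with few or 0 reads, and 3 or 4 tumours a group limit that of every comparison.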
